A study of Mus musculus with 13 samples.

Results

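The insulin receptor, its adaptors, the PI3K subunits, the Akt kinases and the FoxO factors were followed through the pancreas of young, old and old-OSKM mice. The 9 genes were the rows of the expression table whose Entrez identifier belongs to Insr, Irs1, Irs2, Pik3ca, Pik3r1, Akt1, Akt2, Foxo1 or Foxo3 in the mm10 annotation, 9 of 23366 genes in all, and each of them had a row. Expression was measured by RNA sequencing of rRNA-depleted RNA from whole pancreas of female mice, with one library per mouse. The 4 young mice were 13 weeks old and the 5 old mice 55 weeks old, and both of these groups were untreated. The 4 old-OSKM mice received doxycycline for 7 days and were killed after 2 weeks of recovery; the sample labels give their age as 58 weeks and the study's methods give the age of the old mice for both groups. All mice were of the reprogrammable i4F-B line, in which Oct4, Sox2, Klf4 and Myc can be induced by doxycycline in every tissue from a cassette that sits in the Pparg gene, so the untreated controls carried the cassette too. No group received doxycycline without the cassette, and the effects of the drug and of the factors cannot be told apart here. Mice are named below by their group and a number, which follows the order of deposit and pairs nothing.

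Insulin binds its receptor, a tyrosine kinase, which phosphorylates the adaptor proteins Irs1 and Irs2. These recruit phosphoinositide 3-kinase (PI3K), made of a catalytic and a regulatory subunit, whose lipid product brings the Akt kinases to the membrane, where they are activated. Akt phosphorylates the FoxO transcription factors and keeps them out of the nucleus, so that low insulin signalling lets FoxO act on its target genes. Much of this signalling runs through phosphorylation and localization of the proteins, which RNA levels do not measure. In the pancreas the pathway works in the acinar cells, which neighbour the insulin-secreting islets, and in the beta cells themselves, and reduced insulin and PI3K signalling through FoxO is a classical route to longer life in worms and flies.

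Values are log2 RPKM, which scale reads by transcript length and by library total, so levels can be set side by side between genes as well as between mice. Of the 9 genes, Akt1 was the most abundant, with a mean log2 RPKM of 3.37 over the 13 mice, and Irs1 the least abundant, with -0.11, or 10.3 and 0.933 RPKM. The order between them was Akt2 (2.66), Pik3r1 (2.33), Insr (2.12), Foxo3 (1.88), Foxo1 (1.38), Pik3ca (1.07) and Irs2 (0.15). The level of Irs1 stood above that of 62.5% of all genes in the table and the level of Akt1 above that of 98.2%. Neighbours in this order whose ranges over the 13 mice overlapped were Akt2 and Pik3r1, Pik3r1 and Insr, Insr and Foxo3, and Irs2 and Irs1. Pik3r1 nevertheless exceeded Insr in 13 of 13 mice, Insr exceeded Foxo3 in 12, Irs2 exceeded Irs1 in 12 and Akt2 exceeded Pik3r1 in 11. The remaining neighbours did not overlap in range.

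The 13 libraries were mostly acinar by their markers. The RPKM summed over 10 acinar markers ran from 8950 to 9680 in all mice, compared with 68.4 to 435 over 10 markers of islet beta cells, and none of the acinar markers had a group mean log2 RPKM below -1. One library stood apart by its deviation from its group, that of old-OSKM mouse 4. Deviation was measured from the mean of the other mice of the group, over the 8410 genes with a mean log2 RPKM above 0. The median absolute deviation of this library was 0.300 on the log2 scale, compared with 0.0688 to 0.154 in the other 12 mice. Another, that of young mouse 3, held RNA of liver genes: its RPKM summed over 8 hepatocyte markers was 77.7, compared with 1.14 to 7.01 in the other 12 mice, while among the young mice it was the lowest in 1 of the 9 genes (Foxo3) and the highest in 1 (Pik3ca). Several results that these libraries move are given with and without them. The mean z-score of each mouse over all genes was lowest in old-OSKM mouse 4 (-0.568) and next lowest in old-OSKM mouse 1 (-0.352). In the other mice it ran from -0.0896 to 0.217.

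No member passed the adjusted threshold between any pair of groups. In the old against young comparison, 0 of 9 genes had a Benjamini-Hochberg adjusted p under 0.05 from limma, where 0.0813% of all genes did, and the smallest adjusted p among the 9 was 0.828. At an unadjusted p under 0.05 there was 1 gene of 9, Akt1, lower in old mice, where 5.52% of all genes passed in either direction and 2.52% were lower. The values of old and young mice overlapped in all 9 genes, where 2.71% of all genes had groups that did not overlap. Between old-OSKM and old mice, 0 of 9 genes passed the adjusted threshold (0.00428% of all genes) or an unadjusted p under 0.05 (8.07% of all genes). Between old-OSKM and young mice, 0 of 9 passed the adjusted threshold (0.0428% of all genes) and Akt1 alone passed at an unadjusted p under 0.05 (5.07% of all genes, and 2.16% lower). Groups overlapped in every gene in both of these comparisons too, against 1.73% and 1.9% of all genes whose groups did not. The study's definition of a changed gene, a fold change over 1.5 with an unadjusted p under 0.01, was met by 0 of 9 in each comparison, and by 0.886%, 0.753% and 0.625% of all genes.

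**Figure D1:**
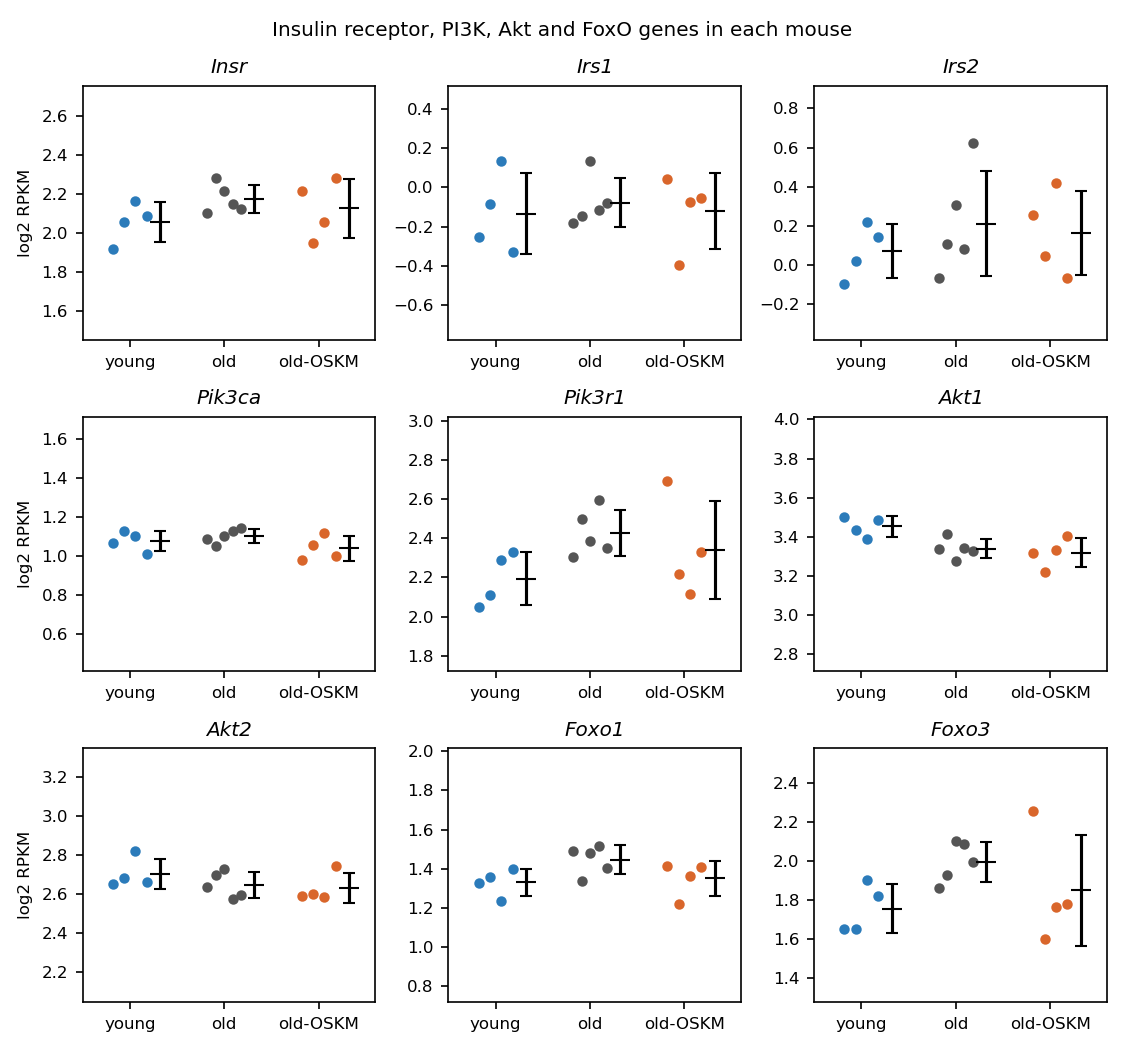
Log2 RPKM (vertical axis) of each of the 9 genes in every mouse, with 4 young, 5 old and 4 old-OSKM mice along the horizontal axis. Each point is 1 mouse, the bar beside each group is the mean with its SD, and every panel spans the same height in log2 units; the groups overlap in all 9 panels, and old-OSKM mouse 4 gives the highest points of Pik3r1 (2.69) and Foxo3 (2.26).

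Each difference had a 95% confidence interval of its own, with no allowance for the number of intervals. All 9 of the 95% confidence intervals lay inside a 1.5-fold change in either direction (0.58 on the log2 scale) in each of the 3 comparisons. The interval bound farthest from 0 was 0.50 in old against young mice (Foxo3), 0.40 in size in old-OSKM against old mice (Foxo3) and 0.42 in old-OSKM against young mice (Irs2), which correspond to 1.41-fold, 1.32-fold and 1.34-fold. Differences inside these intervals were not resolved with 4 or 5 mice a group.

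**Figure D2:**
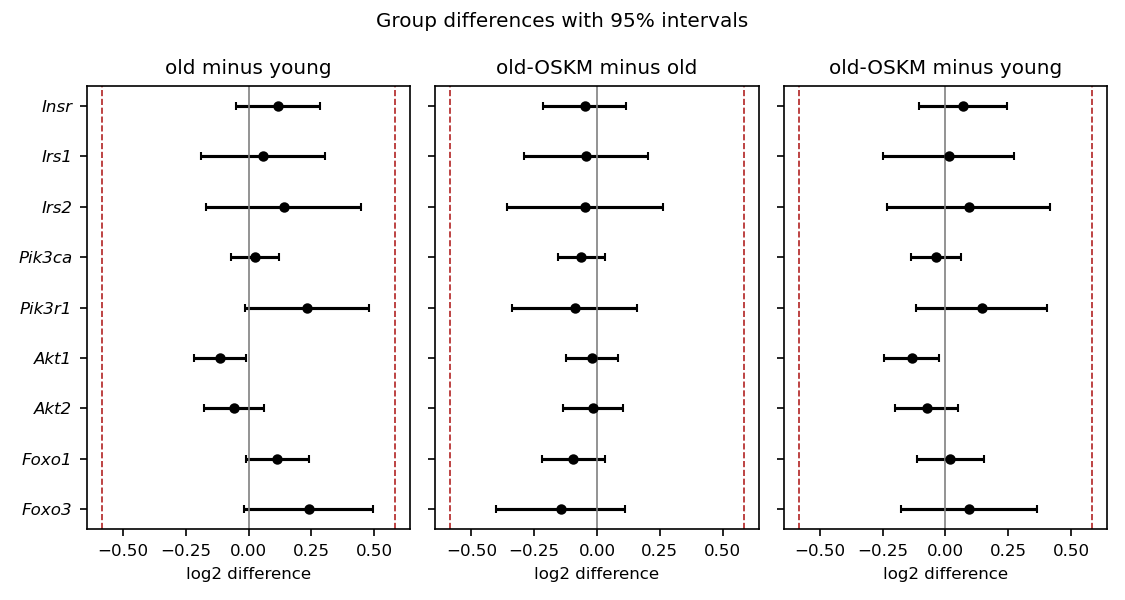
Differences of group means in log2 RPKM (horizontal axis) for the 9 genes (vertical axis) in the 3 comparisons, as points with 95% confidence intervals from limma, and dashed lines at a 1.5-fold change. All 27 intervals end inside the dashed lines, and the intervals of Akt1 in both comparisons with young mice are the ones that leave out 0.

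Insr (Entrez 16337, chromosome 8 of mm10 from 3150922 to 3279649) encodes the insulin receptor. Its log2 RPKM was 1.92, 2.16, 2.05 and 2.09 in the young mice, 2.10, 2.28, 2.21, 2.12 and 2.15 in the old mice and 1.95, 2.05, 2.28 and 2.22 in the old-OSKM mice. The highest young mouse lay above 3 of the 5 old mice, and the old-OSKM values ran from near the lowest young mouse to the highest old mouse. The old mice averaged 2.17 ± 0.07 (SD, n = 5) against 2.06 ± 0.10 (SD, n = 4) for the young, a difference of 0.12 (standard error 0.08, limma adjusted p = 1, exact permutation p = 0.0714), and 0.07 without young mouse 1. The old-OSKM mean was 2.13 ± 0.15 (SD, n = 4), lower than the old mean by 0.05 with a 95% interval from -0.21 to 0.12 (limma adjusted p = 0.749). In whole tissue, fewer cells of a type and less RNA per cell cannot be told apart, for this gene and for those that follow.

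The adaptors Irs1 and Irs2 were the least abundant members. Irs1 (Entrez 16367, chromosome 1 from 82233105 to 82291439) is expressed in most insulin target tissues, and Irs2 (Entrez 384783, chromosome 8 from 10984681 to 11008929) is the adaptor on which beta cell mass depends in mice; FoxO factors are known to raise Irs2 transcription when insulin is low. The sequences before their start sites are shown because both hold the same pair of short motifs close together. Capitals mark the E-box CACGTG, a site of basic helix-loop-helix factors that reads the same on both strands, and TGTTTTG, the reverse complement of CAAAACA, the core of the insulin response element. The stretches are from RefSeq on GRCm38.p6, the assembly of mm10, at chr1:82291445-82291574 and chr8:11008940-11008993, both on the minus strand and written 5′ to 3′ in the direction of the gene, ending 6 and 11 bases before the start.
Irs1: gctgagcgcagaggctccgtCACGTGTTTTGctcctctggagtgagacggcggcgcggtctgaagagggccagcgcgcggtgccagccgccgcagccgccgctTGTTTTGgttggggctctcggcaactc
Irs2: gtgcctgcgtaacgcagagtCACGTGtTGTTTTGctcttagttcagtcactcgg
In Irs1 the last letters of the E-box are the first letters of TGTTTTG, 111 bases before the start, and a further TGTTTTG lies 32 bases before it. In Irs2 the E-box starts 44 bases before the start and TGTTTTG 37 bases before it, with 1 letter between them. On both strands of the 250 bases before the start, CAAAACA was present in 5.56% and CACGTG in 6.02% of 32851 RefSeq windows, and among the 8 members with a window both were found in Irs1 and Irs2 and neither in the others. A match of letters is a description and does not show a bound site.

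No difference between the groups was detected in either adaptor. The log2 RPKM of Irs1 was -0.25, 0.13, -0.09 and -0.33 in young, -0.18, -0.15, 0.13, -0.08 and -0.12 in old and -0.40, -0.07, -0.05 and 0.04 in old-OSKM mice. These values fully intermingled, and the differences were 0.06 in old against young mice (standard error 0.11, limma adjusted p = 1, and from -0.01 to 0.14 with one mouse left out) and -0.04 in old-OSKM against old mice (standard error 0.11, limma adjusted p = 0.859). Irs2 had log2 RPKM of -0.10, 0.22, 0.02 and 0.14 in young, -0.07, 0.11, 0.31, 0.62 and 0.08 in old and 0.05, 0.42, -0.07 and 0.26 in old-OSKM mice. Old mouse 4 gave its highest value, and all 3 groups shared a range around 0. The difference between old and young mice was 0.14 with a 95% interval from -0.17 to 0.45 (limma adjusted p = 1), and it was 0.04 without old mouse 4. Irs2 was the most variable of the 9 genes, with a residual SD of 0.22 within groups, higher than in 75.3% of the 8410 genes with a mean log2 RPKM above 0.

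PI3K was represented by Pik3ca, the gene of the catalytic subunit p110-alpha (Entrez 18706, chromosome 3 from 32397065 to 32466112), and Pik3r1, the gene of the regulatory subunit p85-alpha, which stabilizes and restrains the catalytic one (Entrez 18708, chromosome 13 from 101680761 to 101768217). They behaved differently from mouse to mouse. Pik3ca had log2 RPKM of 1.07, 1.10, 1.13 and 1.01 in young, 1.09, 1.05, 1.10, 1.14 and 1.13 in old and 1.06, 1.12, 1.00 and 0.98 in old-OSKM mice. Its whole range over 13 mice was 0.98 to 1.14, and its residual SD of 0.05 was lower than in all but 0.797% of the 8410 genes. The 95% interval of its difference was -0.07 to 0.12 in old against young mice and -0.16 to 0.03 in old-OSKM against old mice.

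Pik3r1 was more variable, with log2 RPKM of 2.05, 2.29, 2.11 and 2.33 in young, 2.305, 2.50, 2.39, 2.35 and 2.60 in old and 2.22, 2.12, 2.33 and 2.69 in old-OSKM mice. A single pair of young and old mice was out of order, young mouse 4 lying just above old mouse 1. The old mice averaged 2.43 ± 0.12 (SD, n = 5) and the young mice 2.19 ± 0.14 (SD, n = 4), 1.18-fold higher with age, a log2 difference of 0.23 (standard error 0.11). This did not pass in limma (p = 0.0614, adjusted p = 0.941), while the two-sided exact permutation test of this gene alone gave p = 0.0238, where the smallest p that 5 against 4 mice allow is 0.00794. Against old mice, the old-OSKM mice split, with 2 below and 1 within the old range and mouse 4 the highest of all 13. The difference was -0.09 (95% interval -0.34 to 0.16, limma adjusted p = 0.706), and without old-OSKM mouse 4 it was -0.21, which was under 0.05 before adjustment only (limma adjusted p = 0.774).

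Akt1 and Akt2 are the kinases that carry the signal from PI3K, Akt1 with a known part in growth and survival and Akt2 in glucose uptake. Akt1 (Entrez 11651, chromosome 12 from 112653821 to 112674884) was the member with the smallest unadjusted p. Its log2 RPKM was 3.50, 3.39, 3.44 and 3.49 in young, 3.34, 3.41, 3.28, 3.33 and 3.34 in old and 3.22, 3.33, 3.40 and 3.32 in old-OSKM mice. Among the old mice 1 reached above the lowest young mouse, and among the old-OSKM mice likewise 1 did so. Old mice averaged 10.1 ± 0.341 RPKM (SD, n = 5) and young mice 11.0 ± 0.393 RPKM (SD, n = 4), a log2 difference of -0.11 (standard error 0.05, limma p = 0.0335, adjusted p = 0.828, exact permutation p = 0.0238). Old-OSKM mice averaged 9.99 ± 0.515 RPKM (SD, n = 4), and the log2 difference from young mice was -0.14 (standard error 0.05, limma p = 0.0196, adjusted p = 0.706, exact permutation p = 0.0571, where the smallest possible is 0.0286). Between old-OSKM and old mice the difference was -0.02 with a 95% interval from -0.12 to 0.08. These 2 comparisons with young mice share the same young mice and are not independent of each other. Without young mouse 3 the difference of Akt1 between old and young mice was -0.12 (limma adjusted p = 0.823) and no longer under 0.05 before adjustment. The sample identifiers in the labels form 2 runs, and all old-OSKM mice fall in the run from 609 to 621; within that run, of 10 mice, the differences of Akt1 from young mice were -0.11 for old (limma adjusted p = 0.998) and -0.13 for old-OSKM mice (limma adjusted p = 0.716), and neither was under 0.05 before adjustment.

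Akt1 was also the one member whose 250 bases before a start held GTAAACA, the core of the FoxO binding site, found on the opposite strand as TGTTTAC (capitals), 161 bases before the start. The stretch is from RefSeq on GRCm38.p6 at chr12:112675019-112675065, minus strand, written 5′ to 3′ in the direction of the gene, and is shown because Akt1 stands upstream of the FoxO factors.
Akt1: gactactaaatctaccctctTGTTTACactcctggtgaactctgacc
GTAAACA was present on either strand in 3.17% of the 32851 windows, in 1 of 13 member windows and in the windows of 2 of 16 known FoxO target genes, Bcl2l11 and Txnip.

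Akt2 (Entrez 11652, chromosome 7 from 27591552 to 27640826) had log2 RPKM of 2.65, 2.82, 2.68 and 2.66 in young, 2.64, 2.70, 2.73, 2.60 and 2.57 in old and 2.60, 2.59, 2.74 and 2.59 in old-OSKM mice. The old-OSKM values fell within the range of the old mice except for mouse 3, which lay just above it. The difference was -0.06 in old against young mice (95% interval -0.18 to 0.06, limma adjusted p = 1, and -0.02 without young mouse 2) and -0.02 in old-OSKM against old mice (95% interval -0.14 to 0.10, limma adjusted p = 0.884). The balance of the 2 kinases was steady, since Akt1 exceeded Akt2 in every mouse by 0.55 to 0.85 on the log2 scale, on average by 0.75 ± 0.13 (SD, n = 4) in young mice. The gap was 0.69 ± 0.08 (SD, n = 5) for old mice and 0.69 ± 0.06 (SD, n = 4) for old-OSKM mice.

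Foxo1 and Foxo3 encode the transcription factors at the end of the pathway. Foxo1 (Entrez 56458, chromosome 3 from 52268337 to 52350109), a factor of beta cell identity and of the fasting response, had log2 RPKM of 1.33, 1.24, 1.36 and 1.40 in young, 1.49, 1.34, 1.48, 1.40 and 1.51 in old and 1.22, 1.36, 1.41 and 1.41 in old-OSKM mice. Of the old mice 3 lay above all young mice and all old-OSKM mice, and the other two lay among them. The difference was 0.11 in old against young mice (standard error 0.06, limma p = 0.0689, adjusted p = 0.963, exact permutation p = 0.0556) and -0.10 in old-OSKM against old mice (standard error 0.06, limma p = 0.124, adjusted p = 0.608). Without old-OSKM mouse 1 the latter was -0.05.

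Foxo3 (Entrez 56484, chromosome 10 from 42181845 to 42276695), whose human counterpart is known for its association with longevity, had the largest difference between old and young mice among the 9. Its log2 RPKM was 1.65, 1.90, 1.65 and 1.82 in young, 1.86, 1.93, 2.10, 1.99 and 2.09 in old and 1.60, 1.77, 1.78 and 2.26 in old-OSKM mice. Young mouse 2 lay above old mouse 1 and every other young mouse lay below all old mice, while 3 of the old-OSKM mice lay below all old mice and mouse 4 above them. The old mice averaged 1.99 ± 0.10 (SD, n = 5) and the young mice 1.76 ± 0.13 (SD, n = 4), 1.18-fold apart, a log2 difference of 0.24 (standard error 0.12, limma p = 0.0668, adjusted p = 0.955, exact permutation p = 0.0317). The old-OSKM mean was 1.85 ± 0.28 (SD, n = 4), lower than the old mean by 0.14 with a 95% interval from -0.40 to 0.11 (limma adjusted p = 0.609). Without old-OSKM mouse 4 the difference was -0.28 (limma adjusted p = 0.601), and the difference of 0.24 between old and young mice had a limma adjusted p of 0.407, both under 0.05 before adjustment. Other single mice moved these differences too. Without old-OSKM mouse 1 the difference of Foxo3 between old-OSKM and old mice was -0.06, and without old-OSKM mouse 2 that of Pik3r1 was -0.01, so the size of both depended on which old-OSKM mice entered.

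Pik3r1 and Foxo3 varied together. Over the 13 mice their Pearson r was 0.872, and 0.833 after the mean of each group was removed, values given as a description because the points share libraries and normalization. Old-OSKM mouse 4 was the highest of all mice in both genes, and both values of r include it. How much of them rests on this mouse was not tested. The same mouse had the highest summed RPKM of islet beta markers (435, against 68.4 to 352 in the other mice), of fibroblast and stellate markers (81.4, against 22.4 to 59.3) and of endothelial markers (22.2, against 10.02 to 18.1). It was also the highest in islet alpha, delta and PP markers (67.7, against 12.9 to 40.2), duct markers (53.0, against 37.6 to 51.0) and adipocyte markers (17.2, against 4.55 to 15.9); their part in the values of Pik3r1 and Foxo3 was not tested. Old-OSKM mouse 1 was the lowest of its group in 5 of the 9 genes (Insr, Irs1, Akt1, Foxo1 and Foxo3). It had the highest summed RPKM of macrophage markers of all mice, 47.8, with old-OSKM mouse 4 next (38.6) and 11.5 to 25.5 in the others. Its summed adipocyte markers (15.9) came next after those of old-OSKM mouse 4. Old-OSKM mouse 1 was the highest too in B and plasma cell markers (13.5, against 0.850 to 8.19) and T cell markers (5.19, against 0.613 to 1.94). It was the lowest in islet beta markers (68.4, against 101 to 435), and the part of these cells in its values was not tested. Old mouse 1 was also the lowest of its group in 5 of the 9 genes (Insr, Irs1, Irs2, Pik3r1 and Foxo3). Its sums were 16.0 for macrophage, 8.19 for B and plasma cell and 1.94 for T cell markers.

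**Figure D3:**
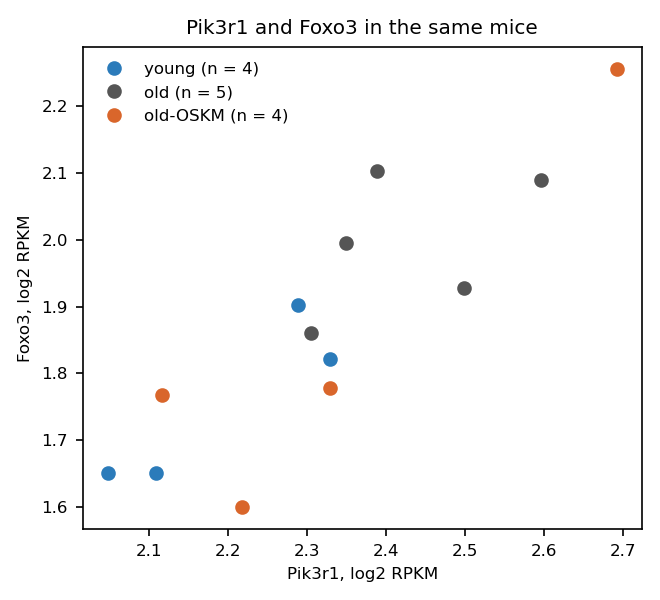
Log2 RPKM of Pik3r1 (horizontal axis) and Foxo3 (vertical axis) in the same 13 mice, 1 point per mouse, coloured by group. The points rise together (Pearson r 0.872), with old-OSKM mouse 4 alone at the upper right (2.69 and 2.26).

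Among the 8410 genes with a mean log2 RPKM above 0, those with the profile most like each member over the 13 mice were named by Pearson r, again as a description. For Pik3r1 these were Alcam (0.935), Per1 (0.930), a gene of the circadian clock, and Ptger4 (0.923). Foxo3 was most like Ccdc88c (0.920), Zfp830 (0.902) and Arid2 (0.902). Insr followed Fbxl20 (0.930), Ltbp3 (0.920) and Slc25a36 (0.910), and Pik3ca followed Mapkap1 (0.916), the gene of a subunit of mTOR complex 2, which phosphorylates Akt, with Pin4 (0.900) and Cldn12 (0.879) after it. Akt1 was most like Edem2 (0.852), B3gat3 (0.838) and Polr2d (0.814), and Akt2 most like Tmem63a (0.863), Stim1 (0.856) and Lfng (0.849). The likeness was weaker for Irs1 (Meaf6 0.837, D430042O09Rik 0.823 and Tent4a 0.799), Irs2 (Pak1ip1 0.809, Ldah 0.740 and Nprl2 0.738) and Foxo1 (Smim6 0.806, Map2 0.783 and Setbp1 0.781).

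Taken as a list, 7 of the 9 genes had a higher mean in old than in young mice, with a median difference of 0.11, and Akt1 and Akt2 had a lower one; over all genes 54.4% were higher and the median difference was 0.00. In old-OSKM against old mice all 9 had a lower mean, with a median of -0.05, while 63.1% of all genes were lower and the median over all genes was -0.04. Of the 9 genes 7 lay below that median and Akt1 and Akt2 above it. Without old-OSKM mouse 1, 3 of the 9 were higher and 6 lower than in old mice, with a median of -0.009. Without old mouse 3, 2 were higher and 7 lower. In the same comparison 10 of 10 islet beta markers were lower (median -0.65, 1 at an unadjusted p under 0.05), 8 of 8 fibroblast and stellate markers higher (median 0.63, 4 at an unadjusted p under 0.05) and 7 of 7 endothelial markers higher (median 0.27, 0 at that threshold), with 0 of these past the adjusted threshold, and their part in the signs of the 9 genes was not tested. Against young mice, 6 were higher and 3 lower in old-OSKM mice, with a median of 0.02, and the median of all genes was -0.04; without old-OSKM mouse 4, 3 were higher and 6 lower, with a median of -0.02. The comparisons of old with young and of old-OSKM with old mice share the old mice. None of the members passed the adjusted threshold, so these counts describe signs of unresolved differences. Irs1 and Akt2 were higher in old-OSKM than in old mice, by 0.00 and 0.02, once the mean z-score of each mouse over all genes was a covariate.

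Around the 9 genes, 75 other genes of the pathway were examined, and 0 of 75 passed an adjusted p under 0.05 in any comparison. At an unadjusted limma p under 0.05 there was 1 gene in old against young mice, which was higher, as were 3% of all genes. In old-OSKM against old mice there were 6, 1 higher and 5 lower, against 3.98% and 4.08% of all genes in these directions. In old-OSKM against young mice there were 3, all higher, against 2.91% of all genes. In old against young mice the groups did not overlap in 1 of the 75, Gsk3a, singled out after its values were seen, where 2.71% of all genes had groups that did not overlap. Igf1r, the closest relative of Insr and the receptor of insulin-like growth factor 1, had a mean log2 RPKM of 1.32 in old-OSKM, 1.32 in old and 1.21 in young mice (limma adjusted p from 0.706 to 1). Pdpk1, the kinase that activates Akt, was at 1.496 in old-OSKM mouse 4 and at 1.86 to 2.16 in the other mice; its difference in old-OSKM against old mice was -0.19 (limma adjusted p = 0.600), and -0.07 without that mouse (limma adjusted p = 0.881).

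By role, the 6 genes in old-OSKM against old mice were 1 of 12 receptors and adaptors, 1 of 6 kinases below PI3K and 4 of 19 brakes, 3 lower and 1 higher, with 0 of 11 PI3K subunits, 0 of 9 Akt substrates and 0 of 18 FoxO targets, where 8.07% of all genes passed. Without old-OSKM mouse 4, 1 of the 19 brakes, 2 of the 12 receptors and adaptors and 0 of the 6 kinases passed. Those that did were lower in old-OSKM mice. The kinases also gave 0 without old-OSKM mouse 1, old mouse 4 or old mouse 5, each left out alone. The receptors and adaptors gave 0 without old-OSKM mouse 1. Phlpp2, a phosphatase of Akt, was lower in old-OSKM (-0.86) than in old mice (-0.56), a difference of -0.30 (standard error 0.10, limma adjusted p = 0.547, exact permutation p = 0.0317). Inpp4b, a phosphatase of another PI3K lipid, was at -1.18 in old-OSKM and -1.66 in young mice, a difference of 0.47 (standard error 0.15, limma adjusted p = 0.706, exact permutation p = 0.0571). Named after their values were seen, the other genes with an unadjusted p under 0.05 were Sos1, Mapkap1, Phlpp1 and Enpp1 (lower) and Inpp5d (higher) in old-OSKM against old mice, Pik3cd and Pik3cg (higher) in old-OSKM against young mice, and Pik3c2a (higher) in old against young mice. In old-OSKM against young mice, 0 of the 11 PI3K subunits passed without old-OSKM mouse 1, old-OSKM mouse 4, young mouse 2 or young mouse 3, each left out alone. In old against young mice 0 of the 11 passed without young mouse 3 or 4 or without old mouse 3, 4 or 5, again each left out alone. Inpp5d, Pik3cd and Pik3cg are known mainly from leukocytes. In old-OSKM against old mice, 8 of 8 macrophage, 6 of 6 B and plasma cell and 5 of 5 T cell markers were higher. Of these, 7, 0 and 0 had an unadjusted p under 0.05. In old-OSKM against young mice all of them were higher too, with 2, 4 and 3 at that threshold. In both comparisons 0 had an adjusted p under 0.05. Macrophage markers had summed RPKM of 17.5 to 47.8 in old-OSKM, 11.5 to 19.7 in old and 14.4 to 25.5 in young mice. The part of these cells in the differences was not tested. Adipocyte markers were low, with 6 of 9 at a group mean log2 RPKM below -1 in old-OSKM mice, and 9 of 9 were higher there than in old mice, 4 at an unadjusted p under 0.05, with summed RPKM of 5.11 to 17.2 in old-OSKM and 4.55 to 7.79 in old mice.

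FoxO target genes, which follow the activity of the factors more closely than the level of their RNA, gave 0 calls of 18 at an unadjusted p under 0.05 in each comparison, and so did the 9 Akt substrates. Over all genes 5.52% passed in old against young, 8.07% in old-OSKM against old and 5.07% in old-OSKM against young mice. In lists this short, counts of 0 are near these shares. Of 18 targets, 5 had a higher mean in the old mice than in the young and 13 a lower one, with a median difference of -0.09. The list holds the liver genes Igfbp1, G6pc and Pck1, and young mouse 3, the library with hepatocyte RNA, gave the highest value of all mice in each of them, for Igfbp1 -1.05 against -3.67 to -3.45 in the other 12. Without this mouse 7 targets were higher and 11 lower, the median was -0.01, and 1 target had an unadjusted p under 0.05 (higher in old mice). Other mice moved the split too. It was 8 higher and 10 lower without young mouse 4 (median -0.08) or without old mouse 5 (median -0.05). Without old mouse 1 it was 7 and 11, with a median of -0.09 and 1 target under 0.05 (higher in old mice). Between old-OSKM and old mice 11 targets were higher and 7 lower, with a median of 0.04. Without old-OSKM mouse 4 the split was 8 higher and 10 lower, with a median of -0.03 and 1 target under 0.05 (lower). Without old mouse 1 it was 8 and 10 as well, with a median of -0.007 and 1 target under 0.05 (lower). It moved further without old-OSKM mouse 2 (5 higher and 13 lower, median -0.05) and without old mouse 5 (6 higher and 12 lower, median -0.07).

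**Figure D4:**
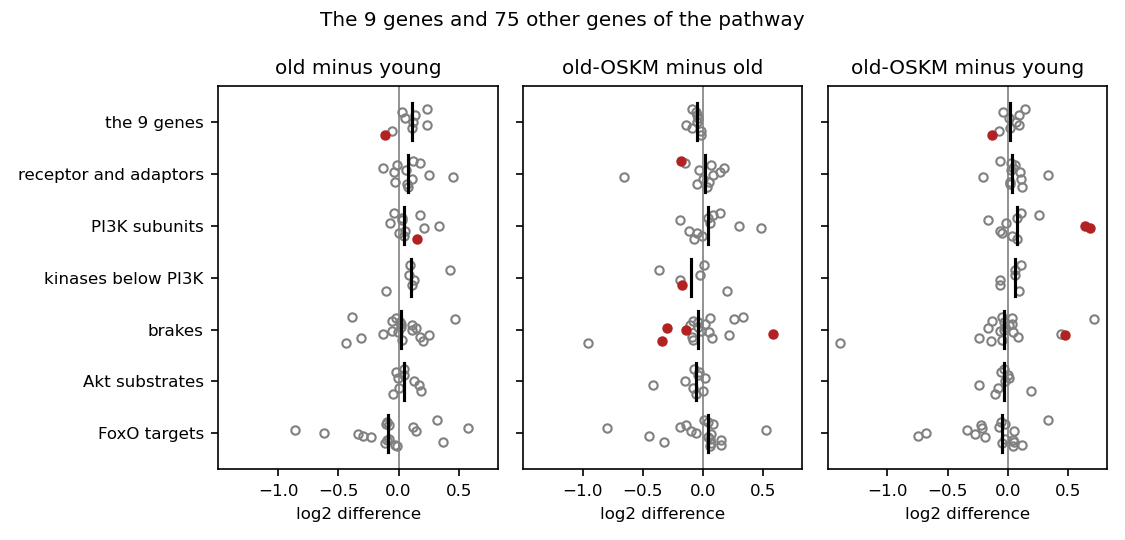
Differences of group means in log2 RPKM (horizontal axis) for the 9 genes and for 75 other genes of the pathway by role (vertical axis), in the 3 comparisons; each circle is 1 gene, filled red at an unadjusted limma p under 0.05, and black bars are medians. The medians of all lists stay near 0 and the red circles are 1, 6 and 3 among the other genes, with Akt1 the red one among the 9.

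Other genes in the GENCODE annotation overlap most of the 9 loci, and the library kit named in the methods keeps no record of strand in its plain form. Reads of Insr, Irs1, Irs2 and Foxo1 and of genes annotated on the opposite strand of the same locus may therefore not be told apart.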

How the data were processed

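RNA was measured in the pancreas of 13 mice, 1 library each. The authors aligned paired-end reads to mm10 with STAR 2.3.0e, per the methods and the submitters' processing notes, estimated RPKM per isoform with Casper, summed it by Entrez identifier, log2-transformed it and quantile normalized it. Deposited are these log2 RPKM for 23366 genes, used as they stand, without pseudocount or filter. The table gives no counts or read totals, so the depth behind each value is unknown and the authors' correction for total reads was not applied here. Members and gene lists were chosen with earlier results of these data known.

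Groups came from the labels. Nothing in the labels pairs mice across groups. All 3 groups were fitted together with limma 3.58.1 in R 4.3.3 (lmFit, eBayes) without covariates, and p-values were two-sided and adjusted by Benjamini-Hochberg over all 23366 genes. Two-sided exact permutation tests of single genes used every split of the mice of both groups. The fit was tested on simulated data. Named were all 9 members, other pathway genes with an unadjusted p under 0.01, Igf1r and Pdpk1, and the 3 genes most like each member; some items under this rule are not reported here. Motifs were searched with Python 3.11.15 in RefSeq promoter windows, in which 8 of the 9 members matched by symbol (Insr did not). Alternatives covered normalization, filter, pseudocounts, groups fitted, variance model, covariates and each mouse left out.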

Additional observations from a re-analysis of the deposited data

Results flagged for a closer look

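One value stood far from the others of its group. Akt2 in old-OSKM mouse 3 had a log2 RPKM of 2.74, while the other 3 old-OSKM mice lay between 2.59 and 2.60. Of 27 groups of 4 or 5 values looked at in this way, 1 stood out, and chance alone would flag about 1 in 20. The value lay within the range of the young mice, and leaving that mouse out moved the difference of Akt2 in old-OSKM against old mice to -0.06.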

How the results depend on the processing

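The 24 alternative settings gave 645 member values, and 0 had an adjusted p under 0.05 (the lowest was 0.330). The exact permutation test, counted among the settings, gives no adjusted p and leaves the differences as they were. A 1.5-fold change was reached by 0 values (the largest difference was 0.29 in size), so no call of a member rested on a setting. Counts at an unadjusted p under 0.05 did move. In old against young mice, 1 member became 0 when genes with a mean log2 RPKM above 0 alone were kept, which drops Irs1 from the table, and 0 in the mice with identifiers 609 to 621 alone, an alternative chosen after seeing the data. The count was 2 with a pseudocount of 1, 2 with the run of identifiers as a covariate, 2 with the mean z-score of each mouse as a covariate, 3 by the exact permutation test, 4 with only both groups in the fit (Pik3r1, Akt1, Foxo1 and Foxo3), and 0 to 3 with one mouse left out. In old-OSKM against old mice it was 0 to 2 with one mouse left out, 2 being Pik3r1 and Foxo3 without old-OSKM mouse 4. In old-OSKM against young mice, Akt1 no longer passed (0 members) with 2 groups in the fit, with the run of identifiers as a covariate, within identifiers 609 to 621 and by the exact test, and the count was 0 to 1 with one mouse left out. Akt1 in old against young mice stayed under 0.05 in 6 of 13 fits with one mouse left out. Every fit without an old-OSKM mouse was among them, and such a fit cannot change this difference, only the estimate of its spread. When a young or old mouse was left out, it stayed under 0.05 without young mouse 2 and without old mouse 2 only.

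For the 75 other pathway genes, 1 in old against young mice became 2 with a pseudocount of 1, with a pseudocount of 0.1 and with trend and robust eBayes, 4 with 2 groups in the fit, 4 with the z-score covariate, 0 with the run of identifiers as a covariate, 3 within 609 to 621, 3 by the exact test and 0 to 4 with one mouse left out. In old-OSKM against old mice 6 became 3 with the filter, 3 with 2 groups in the fit, 2 with the z-score covariate and 3 to 7 with one mouse left out. In old-OSKM against young mice 3 became 0 with the filter, 1 with 2 groups in the fit, 1 with the run of identifiers as a covariate, 1 within 609 to 621, 0 by the exact test and 1 to 6 with one mouse left out. The cause of these shifts was not tested.

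Small differences changed sign. Irs1 turned to -0.00825 in old against young mice within 609 to 621, to 0.00274 in old-OSKM against old mice with the z-score covariate, and to -0.0380 (identifier covariate) and -0.0603 (609 to 621) in old-OSKM against young mice, and Akt2 turned to 0.0188 in old-OSKM against old mice with the z-score covariate. With one mouse left out, differences that crossed 0 ran from -0.00937 to 0.145 for Irs1 in old against young mice. In old-OSKM against old mice they ran from -0.101 to 0.0108 for Insr, -0.0973 to 0.0498 for Irs1, -0.133 to 0.0556 for Irs2, -0.0488 to 0.0117 for Akt1 and -0.0552 to 0.00285 for Akt2, and in old-OSKM against young mice from -0.0520 to 0.106 for Irs1, -0.0119 to 0.0636 for Foxo1 and -0.0411 to 0.177 for Foxo3. No paired analysis was run, because the groups hold different mice with 1 library each. Of 351 member differences with one mouse left out, 87 moved by over 1.5 times. The 351 include those in which the left-out mouse belonged to neither group compared, which cannot move, so the share among the rest was larger. The depth behind each value is unknown, so what it limits cannot be stated.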
